A study of Triticum aestivum with 161 samples.

Results

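Fructan exohydrolases remove the terminal fructose from fructans, the sucrose-based fructose polymers that wheat stores and remobilises. The wheat array carried 4 probe sets annotated to them, out of 61288 in the table. One of them, Ta.199.1.S1_at, is annotated to 1-FEH. The other 3, Ta.30950.1.A1_x_at, Ta.9641.1.A1_a_at and TaAffx.93410.1.S1_at, are annotated to a single 6-FEH gene. They were taken by their annotation, and all 4 entered every comparison, with no filter on low values.

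Fructans consist of fructose chains built on sucrose, joined by linkages of the inulin type, of the levan type, or of both in branched fructans of the graminan type that cereals hold. 1-FEH cleaves linkages of the inulin type and 6-FEH cleaves linkages of the levan type, and both belong to the plant enzyme family that also contains the cell wall invertases. In wheat these enzymes are best known from stems, where fructans are remobilised while the grain fills, and developing grain also holds fructans that decline as it matures.

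Whole caryopses (developing grains) of hexaploid bread wheat, Triticum aestivum, were harvested at 21 days after anthesis, in mid grain filling, from field plots of the 6 UK cultivars Cordiale, Hereward, Istabraq, Malacca, Marksman and Xi_19. Nitrogen was supplied at 100, 200 or 350 kg/ha (N100, N200 and N350). All 3 levels were sampled at Rothamsted in 2009 and 2010, and N200 alone was sampled at Rothamsted in 2011 and at RAGT in 2010 and 2011. This gave 54 groups and 161 arrays, with 3 plots in each of 53 groups and 2 plots in Malacca at N200 in Rothamsted 2009. Each array is 1 plot, with grain taken from tagged heads, so the p-values measure the spread between plots that the labels call biological replicates. There was no untreated plot, and N100 is the lowest supply.

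Signals are given on the log2 scale of the deposited RMA values, on which a difference of 1 is a 2-fold change. Arrays of a group differed from their group mean by a root mean square of 0.07 to 0.34. This was taken over the 24406 probe sets with a mean signal of 6 or more. On this measure 2 arrays lay at more than 2 times the median distance (Hereward and Marksman at N100 in Rothamsted 2009, replicate 1 of each). The number of arrays, and not a read depth, limits the precision. The labelled tissue was checked by marker genes. The summed signal of 22 probe sets of endosperm genes (such as gliadins and serpins) lay between 17.61 and 18.22, a sum led by gli-2 probe sets close to the highest signal on the arrays (medians of 14.88 and 14.94, against 15.06). Single members varied more, one gli-2 probe set from 4.60 to 14.34 and Serpin-Z2A from 7.50 to 13.54. The summed signal of 10 probe sets of embryo genes (such as the Em and late embryogenesis genes) lay between 10.54 and 15.38. In whole caryopses a lower signal may come from fewer cells of a type or from less RNA per cell, and these cannot be told apart.

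The 1-FEH probe set gave signals between 8.49 and 10.83 over the 161 arrays, with a mean of 9.61, which lies above 93.7% of all probe sets. For 6-FEH, Ta.9641.1.A1_a_at ranged from 7.37 to 9.80 with a mean of 8.85. Ta.30950.1.A1_x_at ranged from 6.26 to 8.19 with a mean of 7.30, and TaAffx.93410.1.S1_at ranged from 5.24 to 6.36 with a mean of 5.83, close to the median of 5.36 over all probe sets. Signals of different probe sets are not comparable with each other, since each has its own probes. The standard deviation between plots of a group was 0.28 for the 1-FEH probe set and 0.23, 0.20 and 0.18 for Ta.30950.1.A1_x_at, Ta.9641.1.A1_a_at and TaAffx.93410.1.S1_at, against a median of 0.17 over all probe sets. RefSeq lists further 1-FEH genes, 1-FEHw1 and 1-FEHw3, beside the gene of this probe set (1-FEHw2), and hybridisation of their transcripts to the 1-FEH probe set was not tested.

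Cultivars differed for both genes, in a different order for each. At N200, over the 5 combinations of site and season, Malacca had the lowest 1-FEH signal, and Marksman and Cordiale the highest. For 6-FEH, Ta.9641.1.A1_a_at was lowest in Xi_19 and second lowest in Malacca, and highest in Istabraq and Hereward. Cultivars differed for 3 of the 4 probe sets (limma F test, adjusted p under 0.05), where 46.5% of all probe sets passed the same test. TaAffx.93410.1.S1_at did not pass (adjusted p = 0.522), with a largest difference of 0.12 between any pair of cultivars.

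In single plots at N200, the 1-FEH signal of Malacca was 8.71 at its lowest, 9.08 at the median and 9.42 at its highest over 14 plots. In Marksman it was 9.36, 9.92 and 10.64 over 15 plots. The ranges of these cultivars met only between the highest Malacca plot and the lowest Marksman plot, and within each of the 9 combinations of environment and nitrogen level no Malacca plot reached any Marksman plot. Averaged over environments with equal weight, Malacca reached 9.03 against 9.89 in Marksman, a difference of -0.86 (SE 0.10, limma, adjusted p = 1.27e-11), or 1.81-fold lower.

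Cordiale, at 9.84, did not differ from Marksman beyond the spread between plots (0.05, adjusted p = 0.782). Below them lay Hereward at 9.57, Xi_19 at 9.52 and Istabraq at 9.47, which did not differ between neighbours (adjusted p = 0.773 and 0.779). Cordiale exceeded Hereward by 0.27 (adjusted p = 0.0493, a call lost in 8 alternatives), and Istabraq exceeded Malacca by 0.44 (SE 0.10, adjusted p = 0.000736). In all, 11 of the 15 pairs of cultivars differed for 1-FEH. Besides Cordiale and Hereward, alternatives ended the call for Hereward and Marksman (in 5), for Cordiale with Istabraq or Xi_19 (in 3 each) and for Marksman and Xi_19 (in 1). Over the 15 pairs, between 9.35% and 25.4% of all probe sets differed. That share was 16.9%, 13.4%, 9.35%, 13.2% and 25.4% for Cordiale against Hereward, Istabraq, Malacca, Marksman and Xi_19. It was 12.1%, 14.2%, 15.5% and 23.9% for Hereward against Istabraq, Malacca, Marksman and Xi_19, and 12.3%, 17.4% and 23.8% for Istabraq against Malacca, Marksman and Xi_19. For Malacca against Marksman and Xi_19 it was 11.5% and 21.3%, and for Marksman against Xi_19 it was 14.7%. Malacca had the lowest group mean in 9 of 9 combinations of environment and nitrogen level, and the highest was Marksman in 6, Cordiale in 2 and Xi_19 in 1.

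The contrast between cultivars was wider for the 6-FEH probe set Ta.9641.1.A1_a_at. Istabraq plots at N200 gave 8.96, 9.34 and 9.80 (lowest, median and highest of 15), against 7.37, 8.06 and 8.27 in Xi_19. Every Istabraq plot at N200 was above every Xi_19 plot. The means were 9.41 in Istabraq and 7.99 in Xi_19, a difference of 1.42 (SE 0.07, limma, adjusted p = 2.68e-36) or 2.68-fold. The groups did not overlap in 9 of 9 combinations of environment and nitrogen level, with differences between 1.14 and 2.23.

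Between these extremes, Hereward plots gave 8.79, 9.25 and 9.64, Marksman 8.43, 8.89 and 9.40, Cordiale 8.45, 8.81 and 9.45, and Malacca 7.97, 8.36 and 8.72. Istabraq and Hereward, the highest pair, did not differ beyond their spread (0.13, adjusted p = 0.264), and neither did Marksman and Cordiale (0.04, adjusted p = 0.789). Each other step down the order was called, namely Hereward above Marksman by 0.37 (adjusted p = 2.73e-05), Cordiale above Malacca by 0.49 (adjusted p = 5.88e-08) and Malacca above Xi_19 by 0.39 (adjusted p = 1.09e-05). Thus 13 of 15 pairs differed for this probe set. Xi_19 had the lowest group mean in 9 of 9 combinations, and Istabraq the highest in 7.

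The marker lists also varied between cultivars at N200. The summed signal of 4 probe sets of green tissue genes had a median of 11.73 and a highest value of 12.37 in Istabraq against 12.42 and 12.94 in Xi_19, the lowest and the highest median of the 6 cultivars. The endosperm sum was 17.61, 17.95 and 18.01 (lowest, median and highest) in Malacca against 18.01, 18.09 and 18.22 in Marksman, without overlap. Single members of that list ranged further over all arrays (one gli-2 probe set from 4.60 to 14.34), so the sum does not by itself measure the amount of endosperm. The embryo sum ran from 11.37 to 14.18 in Malacca against 11.27 to 14.84 in Marksman, and from 11.04 to 13.74 in Istabraq against 11.32 to 13.68 in Xi_19. The part of these tissues in the cultivar differences was not tested.

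**Figure D1:**
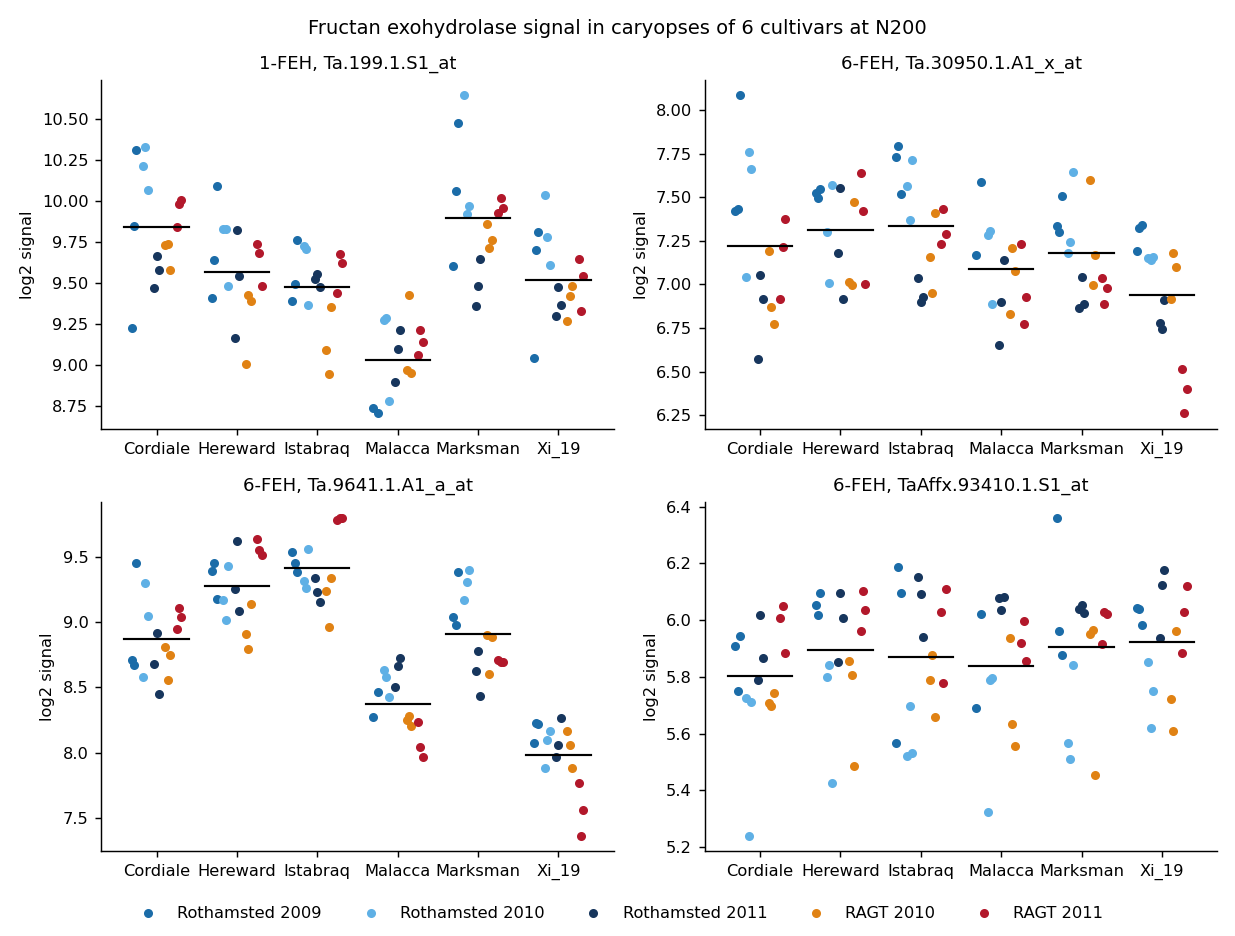
Log2 signal of the 4 probe sets (vertical axes, each on its own scale) in every plot at N200 of 6 cultivars (horizontal axis), coloured by site and season; black bars are means over the 5 environments with equal weight. Malacca sits lowest for 1-FEH at 9.03, and Xi_19 sits lowest for Ta.9641.1.A1_a_at at 7.99, while the bars of TaAffx.93410.1.S1_at differ by at most 0.12.

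The other 6-FEH probe sets separated the cultivars less. Ta.30950.1.A1_x_at had the same extremes, with plots of 6.90, 7.37 and 7.79 (lowest, median and highest) in Istabraq against 6.26, 7.10 and 7.34 in Xi_19, which overlapped widely. Istabraq averaged 7.33 and Xi_19 6.94, a difference of 0.39 (SE 0.08, limma, adjusted p = 7.67e-05), and 5 of 15 pairs differed. No pair of neighbours in its order differed beyond the spread between plots. The cultivar call of this probe set was lost without the RAGT 2011 plots (a range of 0.26 between cultivar means, adjusted p = 0.115). For TaAffx.93410.1.S1_at 0 of 15 pairs passed in limma, and 0 passed an unadjusted p of 0.05.

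Plots at N100 and N350, which the comparison at N200 did not use, gave the same extremes. Over 12 plots of each cultivar at Rothamsted in 2009 and 2010, the 1-FEH signal averaged 9.13 ± 0.34 (SD) in Malacca and 10.03 ± 0.48 in Marksman. For Ta.9641.1.A1_a_at it averaged 9.45 ± 0.26 in Istabraq and 7.99 ± 0.23 in Xi_19, with no overlap between lowest and highest plots (9.06 in Istabraq against 8.31 in Xi_19). Cultivars differed in these plots for 3 of 4 probe sets, where 48.9% of all probe sets passed (limma F test, adjusted p = 3.25e-10 for 1-FEH, 1.95e-38 for Ta.9641.1.A1_a_at and 0.000463 for Ta.30950.1.A1_x_at). TaAffx.93410.1.S1_at did not pass (adjusted p = 0.0840), although it passed with array weights (adjusted p = 0.00788) and without the 2 distant arrays (adjusted p = 0.0206). Over all supplies at Rothamsted in 2009 and 2010, 3 of 4 passed again, where 59.1% of all probe sets passed, and TaAffx.93410.1.S1_at lay at an adjusted p of 0.0504.

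Within single environments at N200, the share of all probe sets that passed was 15.8% in Rothamsted 2009, 12.3% in Rothamsted 2010, 17.4% in Rothamsted 2011, 15.3% in RAGT 2010 and 19.5% in RAGT 2011. The cultivars differed for Ta.9641.1.A1_a_at in each of the 5. The range between cultivar means was 1.28 in Rothamsted 2009, 1.33 in Rothamsted 2010, 1.22 in Rothamsted 2011, 1.14 in RAGT 2010 and 2.23 in RAGT 2011. For 1-FEH the range of 1.32 in Rothamsted 2009, 1.09 in Rothamsted 2010 and 0.83 in RAGT 2011 passed the test. It was 0.50 in Rothamsted 2011 (adjusted p = 0.519) and 0.66 in RAGT 2010 (adjusted p = 0.0680), which did not pass. Each of these tests took its spread from all 161 arrays, and arrays of 2011 lay closer to their group means than most of 2009.

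RAGT 2011 stood apart for the 6-FEH probe sets Ta.9641.1.A1_a_at and Ta.30950.1.A1_x_at, while the cultivar means of TaAffx.93410.1.S1_at ranged over only 0.11 there. The 3 Istabraq plots gave 9.78, 9.80 and 9.80 there for Ta.9641.1.A1_a_at, and the 3 Xi_19 plots gave 7.77, 7.37 and 7.56. These were the highest and the lowest group means of this probe set over the 54 groups, 9.79 and 7.57. In the same plots Ta.30950.1.A1_x_at read 7.23, 7.43 and 7.29 in Istabraq against 6.52, 6.26 and 6.40 in Xi_19, again without overlap. A test of whether cultivar differences varied between the 5 environments called Ta.9641.1.A1_a_at alone of the 4 (adjusted p = 0.000138, where 6.94% of all probe sets passed). That call was lost without RAGT 2011 (adjusted p = 0.494) and without replicate 2 (adjusted p = 0.317).

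The 1-FEH probe set and Ta.9641.1.A1_a_at placed the cultivars differently, as the plot of both deviations shows. The mean of the 6 cultivars in the same environment and nitrogen level was subtracted. Malacca was then below 0 for both probe sets in 9 of 9 combinations. Its median deviation was -0.49 for 1-FEH and -0.40 for Ta.9641.1.A1_a_at. Xi_19 was below 0 for Ta.9641.1.A1_a_at in 9 of 9 (median -0.86) and spread around 0 for 1-FEH, being above it in 4 of 9 (median -0.01). Istabraq was above 0 for Ta.9641.1.A1_a_at in 9 of 9 (median 0.53) and above it for 1-FEH in 2 of 9 (median -0.10). Marksman and Cordiale were above 0 for 1-FEH in 9 of 9 each, with medians of 0.38 and 0.23.

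**Figure D2:**
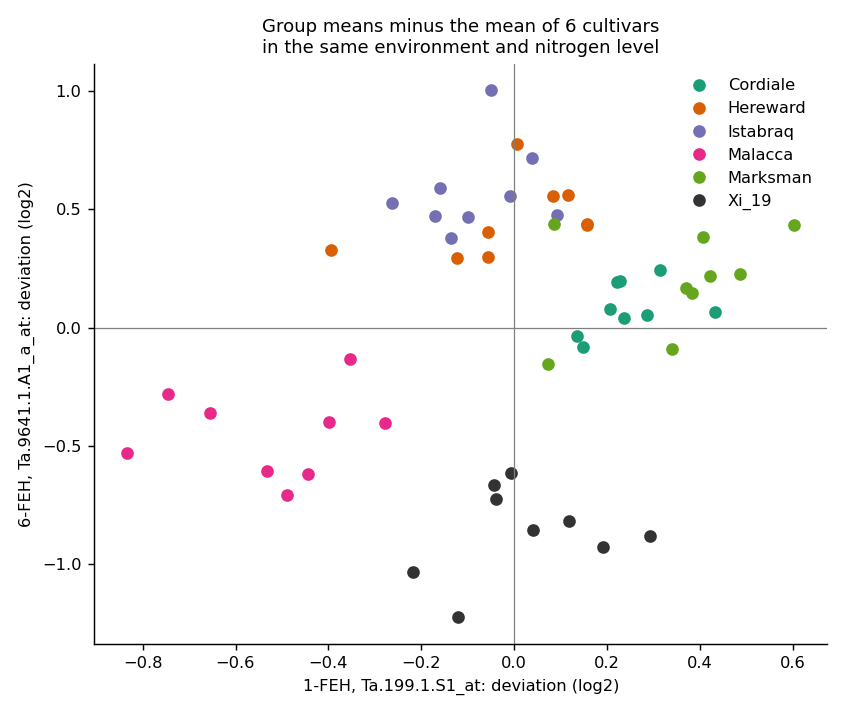
Deviation of each of the 54 group means from the mean of the 6 cultivars in the same environment and nitrogen level (log2), for 1-FEH on the horizontal axis and the 6-FEH probe set Ta.9641.1.A1_a_at on the vertical axis; each point is a group of plots, coloured by cultivar. All 9 Malacca points lie below 0 on both axes, and all 9 Xi_19 points lie below 0 on the vertical axis while they fall on both sides of 0 on the horizontal one.

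The share of the variation between the 89 arrays at N200 that lay between cultivars was 78.5% for Ta.9641.1.A1_a_at and 50.5% for 1-FEH, against a median of 9.15% over the 24406 probe sets whose mean signal was 6 or more. It was 16.8% for Ta.30950.1.A1_x_at and 3.66% for TaAffx.93410.1.S1_at. Environments accounted for 3.39%, 13.3%, 37.2% and 51.7% of the variation of Ta.9641.1.A1_a_at, 1-FEH, Ta.30950.1.A1_x_at and TaAffx.93410.1.S1_at, and the median was 52.5%. By these shares Ta.9641.1.A1_a_at varied mostly with cultivar. For TaAffx.93410.1.S1_at, annotated to the same gene, the largest share lay between environments and was close to that median. This share includes shifts between seasons that most probe sets had. Its site differences were not called (0.10 in 2010 and -0.04 in 2011), and its mean of 5.83 lies below the limit of 6.

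Nitrogen supply went with a smaller difference. Over 6 cultivars and the Rothamsted seasons of 2009 and 2010, 3 of the 4 probe sets were lower at N350 than at N100. They passed in limma at an adjusted p under 0.05, where 23.0% of all probe sets differed and 12.3% were lower. The 6-FEH probe set TaAffx.93410.1.S1_at was not called and was higher at N350 in 10 of 12 combinations of cultivar and season. The 1-FEH call was lost in 9 of 19 alternatives. In 2009 alone the 1-FEH difference was -0.03 (limma, adjusted p = 0.923). The median difference over the 4 probe sets was -0.18, and over all probe sets it was 0.01. Green tissue genes were measured beside them, and 4 of 4 probe sets of that list were higher at N350 (median 0.24, where 10.7% of all were higher), while the embryo list had 0 of 10 called in either direction (median 0.17). Of the 22 endosperm probe sets, 12 were higher and 5 lower (median 0.09). The part of these tissues in the nitrogen differences was not tested.

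The most regular nitrogen difference was that of the 6-FEH probe set Ta.30950.1.A1_x_at. In 36 plots at N100 the lowest, median and highest signals were 6.92, 7.59 and 8.19, in 35 plots at N200 they were 6.89, 7.37 and 8.08, and in 36 plots at N350 they were 6.78, 7.30 and 7.77. The whole range moved down while the levels overlapped. At N350 the mean of 7.31 was lower than the 7.62 at N100 by 0.31 (difference -0.31, SE 0.05, limma, adjusted p = 3.13e-06), or 1.24-fold, and it was lower in 12 of 12 combinations of cultivar and season. These differences lay between -0.64 and -0.07, and the plots did not overlap in 3 of the 12. The difference passed the test within 2010 (-0.34, adjusted p = 0.000381) and within 2009 (-0.28, adjusted p = 0.0276, where 1.79% of all probe sets passed). The call in 2010 was lost in 1 of 11 alternatives (adjusted p = 0.0539, without replicate 3) and that in 2009 in 3 of 11, where the adjusted p reached 0.299 (without replicate 2, without replicate 3 and with the compared arrays alone).

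Malacca in 2010 had the largest nitrogen difference of this probe set, with 7.15, 6.99 and 6.97 at N350 against 7.35, 7.66 and 8.03 at N100. Xi_19 in 2009 had the smallest, with 6.78, 7.10 and 7.51 at N350 against 6.92, 7.41 and 7.26 at N100. Taken by cultivar over both seasons, Malacca alone passed for any of the 4 probe sets (Ta.30950.1.A1_x_at, -0.40, adjusted p = 0.0464, where 5.22% of all probe sets passed), a call lost in 4 alternatives. In the other cultivars 0.654% (Cordiale), 0.963% (Hereward), 0.185% (Istabraq), 1.59% (Marksman) and 0.198% (Xi_19) of all probe sets passed. Whether the nitrogen difference varied between cultivars was tested, and 0 of 4 probe sets passed in limma, with 0 at an unadjusted p of 0.05 (0.0212% of all probe sets passed).

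Ta.9641.1.A1_a_at was lower at N350 by a smaller step, 8.82 against 9.00 at N100 (difference -0.18, SE 0.05, limma, adjusted p = 0.00168), and in 11 of 12 combinations. The exception was Malacca in 2009, with 8.33, 8.54 and 8.75 at N350 against 8.15, 8.72 and 8.16 at N100. Within seasons the difference was -0.24 in 2010 (adjusted p = 0.00487, a call lost without replicate 1 or 2) and -0.13 in 2009 (adjusted p = 0.323). Without replicate 2 it was -0.13 (adjusted p = 0.139). Nitrogen levels held 1.87% of the variation of this probe set in the 107 arrays of Rothamsted 2009 and 2010, and 19.3% of that of Ta.30950.1.A1_x_at, where the median was 2.33%.

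For 1-FEH the mean was 9.57 at N350 against 9.75 at N100 (difference -0.18, SE 0.06, limma, adjusted p = 0.0313), lower in 8 of 12 combinations. The seasons were unlike. In 2010, 18 plots at N350 gave 9.09, 9.55 and 10.46 (lowest, median and highest) against 9.27, 9.91 and 10.83 at N100, a difference of -0.33 (SE 0.09, adjusted p = 0.00457, a call lost without replicate 2 or 3), and 3 of 4 probe sets passed, against 20% of all. In 2009 it was 8.49, 9.63 and 10.43 at N350 against 8.85, 9.53 and 10.21 at N100, a difference of -0.03 (adjusted p = 0.923). The difference between seasons itself, -0.31 (SE 0.13), did not pass (adjusted p = 0.324), and 0 of 4 probe sets passed it in limma with 1 at an unadjusted p of 0.05 (0.690% of all probe sets passed). The 1-FEH call at N350 was also lost without replicate 2 (-0.14, adjusted p = 0.324), without replicate 3 (-0.19, adjusted p = 0.124), and without Cordiale, Istabraq, Malacca or Marksman in turn.

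TaAffx.93410.1.S1_at lay at 5.81 at N350 against 5.72 at N100 (0.09, SE 0.04, adjusted p = 0.121), the opposite sign to the other probe sets, and was above 0 in 10 of 12 combinations. At the middle supply, N200 against N100, Ta.30950.1.A1_x_at alone passed (-0.21, SE 0.05, adjusted p = 0.00307, where 14.9% of all probe sets passed). It lost the call without replicate 2 (adjusted p = 0.0769) and without Malacca (adjusted p = 0.0525). Between N350 and N200 0 of 4 passed in limma, with 0 at an unadjusted p of 0.05 (0.0376% of all probe sets passed), and the differences were -0.09, -0.10, -0.09 and 0.00 for 1-FEH, Ta.30950.1.A1_x_at, Ta.9641.1.A1_a_at and TaAffx.93410.1.S1_at.

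**Figure D3:**
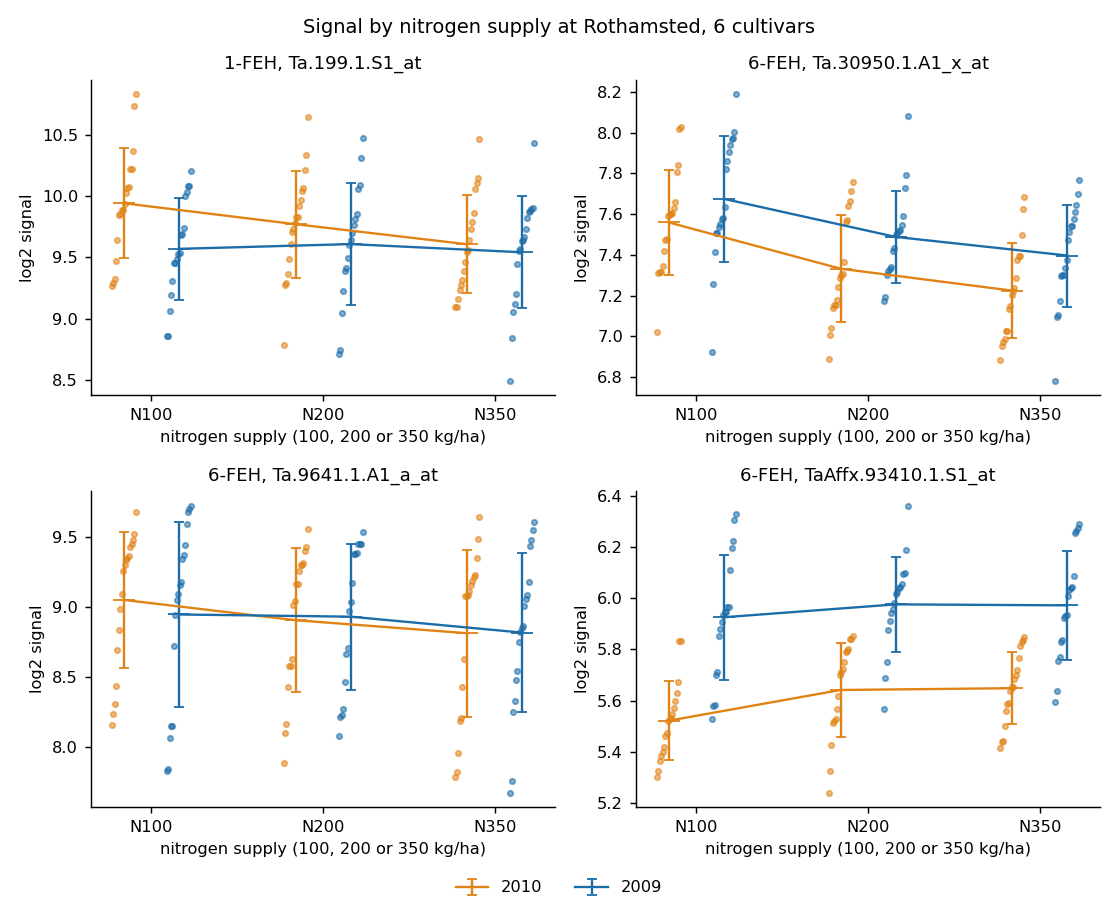
Log2 signal (vertical axes, each on its own scale) against nitrogen supply at Rothamsted (horizontal axes) in 2010 (orange) and 2009 (blue); points are plots of 6 cultivars, and the dashes with bars are the mean and SD of 17 or 18 plots. Ta.30950.1.A1_x_at steps down with supply in both seasons, 1-FEH does so in 2010, and TaAffx.93410.1.S1_at is lower in 2010 at every supply.

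**Figure D4:**
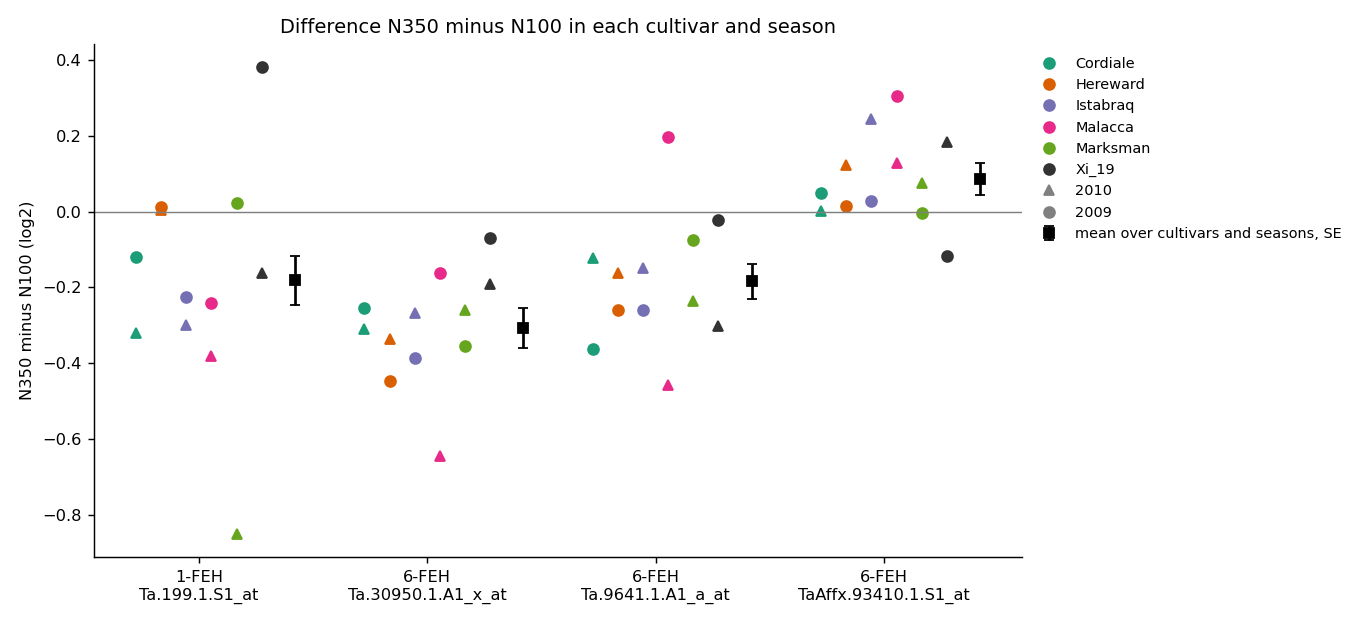
Difference N350 minus N100 in log2 signal (vertical axis) for each of the 4 probe sets (horizontal axis) in each of 6 cultivars in 2010 (triangles) and 2009 (circles); black squares with bars are the means over all 12 with their SE. All 12 points of Ta.30950.1.A1_x_at lie below 0, between -0.64 and -0.07, while those of 1-FEH run between -0.85 and 0.38.

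No other gene of fructan or sucrose metabolism was identified among the probe sets with a gene name, apart from a probe set listed under both IVR1, an invertase name, and atpA, so that its gene is not settled. Its signal lay near the bottom of the scale at N350 and N100 (3.03 and 2.95, adjusted p = 0.0997). Of 3 starch probe sets in the list, 1 was lower at N350 and 0 were higher. Among all probe sets, 12.3% were lower and 10.7% higher. GBSS, which makes the amylose of starch granules, lay at 12.71 at N350 against 12.83 at N100 (difference -0.12, SE 0.03, limma, adjusted p = 0.00236). AGP-S, a subunit of ADP-glucose pyrophosphorylase, which supplies the ADP-glucose for starch, gave 0.03 (adjusted p = 0.560). The probe set listed as amy1, with the further name BMY1, gave -0.21 (adjusted p = 0.557) and an SE of 0.23.

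With the spread taken from all 161 arrays, no site difference passed in 2011, while 3 of 4 probe sets passed in 2010. Arrays of 2011 differed from their group mean by a root mean square of at most 0.15, against up to 0.34 in 2009. In 2011, 1-FEH averaged 9.63 at RAGT and 9.42 at Rothamsted (0.20, SE 0.09, adjusted p = 0.194), with the mean at RAGT above that at Rothamsted in 6 of 6 cultivars. In limma 0 of 4 probe sets passed, with 1 at an unadjusted p of 0.05 (5.82% of all probe sets passed). The 1-FEH probe set passed in limma when the spread was taken from the compared arrays alone (SE 0.05, adjusted p = 0.00186). It also passed with array weights (adjusted p = 0.0102). The embryo list had 0 of 10 probe sets called between sites in that season (median 0.04).

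In 2010, at N200, 18 plots at RAGT had a 1-FEH signal of 8.95, 9.42 and 9.86 (lowest, median and highest), against 8.78, 9.80 and 10.64 in 18 plots at Rothamsted. RAGT averaged 9.40 and Rothamsted 9.77, a difference of -0.37 (SE 0.09, limma, adjusted p = 0.000879), and RAGT was lower in 5 of 6 cultivars. Malacca was the exception, with 8.97, 9.42 and 8.96 at RAGT against 9.27, 9.29 and 8.78 at Rothamsted.

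In the same season Ta.9641.1.A1_a_at was lower at RAGT by 0.26 (difference -0.26, SE 0.07, adjusted p = 0.00140) and Ta.30950.1.A1_x_at by 0.23 (difference -0.23, SE 0.08, adjusted p = 0.0147), each in 6 of 6 cultivars. In all 3 of 4 probe sets passed, against 30.5% of all probe sets. The call of Ta.30950.1.A1_x_at was lost without Cordiale (-0.16, adjusted p = 0.123), without Istabraq and without replicate 2 or 3, and that of Ta.9641.1.A1_a_at without replicate 2 (-0.19, adjusted p = 0.105). The embryo list was lower at RAGT in the same plots in 10 of 10 probe sets (median -2.15, where 14.6% of all were lower), with a summed signal of 11.92 to 13.21 at RAGT and 12.43 to 14.84 at Rothamsted. Across plots, the deviation of Ta.9641.1.A1_a_at from its group mean correlated with that of the embryo list (Pearson r = 0.57 over 161 arrays), and that of 1-FEH and Ta.30950.1.A1_x_at at 0.22 and 0.27. With the green list r was 0.05 for Ta.9641.1.A1_a_at, 0.37 for 1-FEH and 0.33 for Ta.30950.1.A1_x_at, and with the endosperm list it was 0.16, -0.09 and 0.16. The part of the embryo in the site difference was not tested.

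The site difference itself differed between 2011 and 2010 in 3 of 4 probe sets, against 29.4% of all. It was higher in 2011 by 0.58 for 1-FEH (SE 0.13, limma, adjusted p = 0.000370), by 0.31 for Ta.30950.1.A1_x_at (SE 0.11, adjusted p = 0.0182) and by 0.28 for Ta.9641.1.A1_a_at (SE 0.09, adjusted p = 0.0148). The calls of the 6-FEH probe sets were lost in 6 alternatives for Ta.30950.1.A1_x_at and in 7 for Ta.9641.1.A1_a_at.

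**Figure D5:**
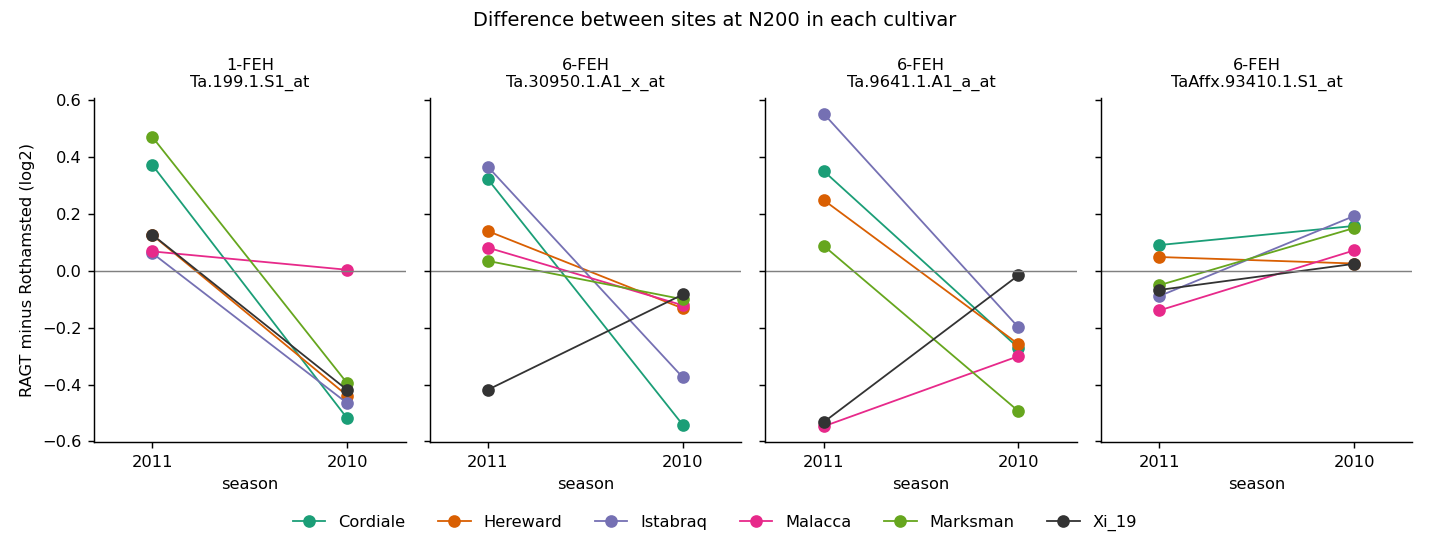
Difference RAGT minus Rothamsted in log2 signal at N200 (vertical axis, shared) in 2011 and 2010 (horizontal axes) for the 4 probe sets; each line is a cultivar, and each point is the difference of the means of 3 plots. All 6 lines of 1-FEH lie higher in 2011 than in 2010, while for Ta.9641.1.A1_a_at the lines of Xi_19 and Malacca lie lower in 2011 and those of the other 4 cultivars higher.

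Seasons are harder to compare, since the distribution of signals differed by season: the 1st percentile of an array was 2.29 to 2.36 in 2009, 2.12 to 2.19 in 2010 and 2.57 to 2.61 in 2011. Season differences passed for most probe sets of the array (81.3% for 2010 against 2009 at Rothamsted, 85.1% for 2011 against 2010 at Rothamsted and 82.3% at RAGT), and the median of all probe sets moved by -0.15, 0.32 and 0.30. At Rothamsted, 1-FEH was lower in 2011 than in 2010, with 8.90, 9.48 and 9.82 (lowest, median and highest of 18 plots at N200) in 2011 against 8.78, 9.80 and 10.64 in 2010, a difference of -0.34 (SE 0.09, limma, adjusted p = 0.000387), or -0.67 after the median shift of all probe sets was subtracted. Without replicate 1 it was -0.18 (adjusted p = 0.0573).

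Ta.30950.1.A1_x_at was also lower at Rothamsted in 2011, with a mean of 6.94 in 2011 against 7.33 in 2010 (-0.39, adjusted p = 1.41e-06, and -0.71 relative to the median), in 6 of 6 cultivars. Ta.9641.1.A1_a_at gave -0.14 (adjusted p = 0.0348, and -0.47 relative to the median), with 3 cultivars lower and 3 higher. It did not pass when Marksman (-0.038, adjusted p = 0.631), Cordiale, Istabraq or replicate 3 (-0.057, adjusted p = 0.471) was left out. TaAffx.93410.1.S1_at was higher by 0.38 in 2011 (adjusted p = 5.50e-09), which was 0.05 relative to the median. The embryo list was lower in 2011 in 10 of 10 probe sets (median -3.95, where 13.8% of all were lower), and its part in these differences was not tested.

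At RAGT, 2011 against 2010, the differences of 1-FEH (0.23, adjusted p = 0.0164) and Ta.9641.1.A1_a_at (0.14, adjusted p = 0.0460) turned to -0.06 and -0.16 relative to that median shift, so their direction depends on the scaling. Over 17 alternatives the call of 1-FEH was lost in 3 and its direction turned in 1, and that of Ta.9641.1.A1_a_at was lost in 5 and turned in 2. The embryo list was lower in 2011 there in 8 of 10 probe sets (median -1.88, where 11.6% of all were lower). Between 2010 and 2009 at Rothamsted, 1-FEH gave 0.22 (SE 0.05, adjusted p = 0.000146, and 0.36 relative to the median). Without replicate 1 this was 0.00 (adjusted p = 0.979): in Rothamsted 2009, the plot numbered 1 had the lowest 1-FEH signal in 12 of the 18 groups, in 5 of 6 at N100, 5 of 6 at N200 and 2 of 6 at N350. The embryo list was higher in 2010 than in 2009 in 10 of 10 probe sets (median 1.58, where 18.1% of all were higher), and its part in these differences was not tested. Ta.30950.1.A1_x_at gave -0.15 (adjusted p = 0.00148), which was 0.00 relative to the median and 0.02 after array medians were centred. TaAffx.93410.1.S1_at was lower in 2010 (-0.35, adjusted p = 2.52e-17, and -0.21 relative to the median).

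Among themselves, the probe sets fell into a close pair and 2 others. Over the 54 group means, with environment means removed, Ta.30950.1.A1_x_at and Ta.9641.1.A1_a_at had a Pearson r of 0.75, and over the deviations of the 161 arrays from their group means it was 0.69. The 1-FEH probe set had an r of 0.19, 0.31 and 0.11 with Ta.30950.1.A1_x_at, Ta.9641.1.A1_a_at and TaAffx.93410.1.S1_at over group means, and of 0.17, 0.05 and -0.04 over arrays. TaAffx.93410.1.S1_at had an r of -0.29 with Ta.30950.1.A1_x_at and 0.05 with Ta.9641.1.A1_a_at over group means. Points share cultivars and plots, so these are descriptions.

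The probe set most like 1-FEH over the 54 group means was Ta.23660.1.S1_at, which has no gene name here (r = 0.83), and among named ones a gliadin probe set (gli-2, r = 0.64) and Serpin-Z2A, a grain serine protease inhibitor (r = 0.58). This gli-2 probe set ran from 4.60 to 14.34 over the arrays (median 14.07) and Serpin-Z2A from 7.50 to 13.54. Whether single cultivars carry these r values was not tested. Plot by plot, 1-FEH followed tubulin, the structural protein of microtubules, most closely among named genes, with an r of 0.80, 0.78 and 0.77 for 3 TUB probe sets over 161 arrays. For Ta.9641.1.A1_a_at the nearest was TaAffx.2166.1.A1_at (r = 0.86, unnamed), with WZF1, a zinc finger gene, and H2A-9, a histone H2A, at 0.62 each among named ones. Plot by plot, its nearest named genes were PEAMT1, a phosphoethanolamine methyltransferase, at 0.64 and PER1 at 0.62. Ta.30950.1.A1_x_at also had PEAMT1 as its nearest named gene plot by plot (0.57). The nearest of TaAffx.93410.1.S1_at over group means was TaAffx.112150.1.S1_at (r = 0.74, unnamed).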

How the data were processed

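Total RNA of each plot was hybridised to an Affymetrix wheat array, and the values deposited by the authors are log2 signals per probe set made with RMA, per the submitters' processing notes. RMA corrects the background, applies quantile normalization and summarises probes. Its version is not given in the sources used here, nor is it stated whether seasons were normalized jointly. Groups come from the cultivar, nitrogen, site and season labels.

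The table holds 61288 probe sets, of which 110 are Affymetrix controls and were dropped. The other 61178 were fitted with limma 3.58.1 in R 4.3.3 as 54 group means with 107 residual degrees of freedom. Differences were contrasts of group means with equal weights, tested two-sided, F tests were used over more than 1 contrast, and p-values were adjusted by Benjamini-Hochberg over all probe sets of a contrast. A call is an adjusted p under 0.05. The fit was also run on simulated data with independent noise and a single spread per probe set. Such data cannot test the effect of likeness between plots of the same number or of unequal spread between environments. No batch is named in the labels beyond season and site.

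Gene names come from the platform annotation, in which 1273 probe sets have 1 gene and 0 have several, updated through RefSeq (IWGSC CS RefSeq v2.1), which matched 770 of 771 genes. Only 200 probe sets have an informative name. The 4 probe sets are described in full, with list genes (fructan and sucrose, starch, tissue markers) and the 3 nearest and 3 nearest named probe sets by Pearson r among those with a mean of at least 6. These members and lists were chosen with earlier results of these data known, and the IVR1 probe set was added later. Alternatives were a replicate block, other scaling (quantile normalization, centred medians), array weights, a variance trend, a filter on the mean, the compared arrays alone, and leaving out replicates, cultivars, environments or seasons. No sequence or coordinate is given.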

Additional observations from a re-analysis of the deposited data

Results flagged for a closer look

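The site difference, RAGT minus Rothamsted at N200, differed between 2011 and 2010 by a test of the difference itself. It was higher in 2011 by 0.58 for 1-FEH (0.20 in 2011 and -0.37 in 2010), by 0.31 for Ta.30950.1.A1_x_at (0.09 in 2011 and -0.23 in 2010) and by 0.28 for Ta.9641.1.A1_a_at (0.03 in 2011 and -0.26 in 2010), with adjusted p-values in limma of 0.000370, 0.0182 and 0.0148. The embryo list had 0 of 10 probe sets called between sites in 2011 (median 0.04) and was lower at RAGT in 2010 (10 of 10, median -2.15), and its part was not tested.

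Cultivar differences at N200 varied between the 5 environments for Ta.9641.1.A1_a_at, by a limma F test of that variation (adjusted p = 0.000138). The deviation of a cultivar from the mean of the 6 ranged over environments by up to 0.61, where the median over all probe sets was 0.33. The call was lost without RAGT 2011 (adjusted p = 0.494) and without replicate 2 (adjusted p = 0.317). At RAGT in 2011 Istabraq lay at 9.79 and Xi_19 at 7.57, a range of 2.23, against ranges of 1.14 to 1.33 in the other 4 environments.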

How the results depend on the processing

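For comparisons of the 4 probe sets, 882 recomputed values kept their side of the threshold, 51 lost a call, 12 gained one and 4 called differences turned direction. Of single cultivar pairs, seasons and cultivars, 1312 kept their side of the threshold, 54 lost a call and 9 gained one. Differences without a call could change sign and still count as kept. Examples are N350 minus N200 of TaAffx.93410.1.S1_at (-0.021 to 0.025) and Cordiale minus Marksman at N200 for 1-FEH (-0.12 to 0.010). The F tests over the 6 cultivars at N200 for 1-FEH and Ta.9641.1.A1_a_at and the N350 minus N100 difference of Ta.30950.1.A1_x_at (-0.36 to -0.26) kept their calls in every alternative run, while single cultivar pairs of 1-FEH did not. Season differences turned with scaling. After quantile normalization, 2011 minus 2010 at RAGT was -0.17 for 1-FEH, -0.36 for Ta.30950.1.A1_x_at, -0.23 for Ta.9641.1.A1_a_at and 0.056 for TaAffx.93410.1.S1_at, and with centred array medians it was 0.083, -0.23, -0.011 and 0.091. Centring also gave 0.022 for Ta.30950.1.A1_x_at and 0.20 for Ta.9641.1.A1_a_at in 2010 minus 2009. The cause was not tested.

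Quantile normalization gave -0.15 for N350 minus N100 of 1-FEH (adjusted p = 0.0960), and 0.24 and 0.22 for the change of site difference of Ta.30950.1.A1_x_at and Ta.9641.1.A1_a_at. With the compared arrays alone, N350 minus N100 of 1-FEH was -0.18 (adjusted p = 0.0805) and RAGT minus Rothamsted in 2011 was 0.20. In 2009 alone N350 minus N100 was -0.028 for 1-FEH and -0.13 for Ta.9641.1.A1_a_at, and N200 minus N100 was -0.19 for Ta.30950.1.A1_x_at. Array weights called N200 minus N100 for Ta.9641.1.A1_a_at (-0.13) and TaAffx.93410.1.S1_at (0.11), RAGT minus Rothamsted in 2011 for 1-FEH (0.21), the cultivar by environment test of Ta.30950.1.A1_x_at (0.60), and cultivar differences of TaAffx.93410.1.S1_at at Rothamsted (ranges of 0.21 over all supplies and 0.24 at N100 and N350). Without the 2 distant arrays, an alternative chosen after seeing the data, the last were 0.20 and 0.25. Without RAGT 2011, the cultivar range of Ta.30950.1.A1_x_at was 0.26, and the cultivar by environment value of Ta.9641.1.A1_a_at was 0.54 (also added after seeing the data).

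Leaving out a cultivar moved N350 minus N100 of 1-FEH to -0.17 (Cordiale), -0.17 (Istabraq), -0.16 (Malacca) and -0.13 (Marksman), and N200 minus N100 of Ta.30950.1.A1_x_at to -0.17 (Malacca). It moved 2011 minus 2010 of Ta.9641.1.A1_a_at at Rothamsted to -0.12 (Cordiale), -0.15 (Istabraq) and -0.038 (Marksman), and at RAGT to 0.10 (Cordiale), 0.041 (Hereward) and 0.043 (Istabraq), with 0.19 for 1-FEH (Istabraq). RAGT minus Rothamsted in 2010 of Ta.30950.1.A1_x_at became -0.16 (Cordiale) and -0.20 (Istabraq). The change of site difference became 0.20 and 0.23 for Ta.30950.1.A1_x_at (Cordiale, Istabraq), and 0.22, 0.24, 0.19 and 0.22 for Ta.9641.1.A1_a_at (Cordiale, Hereward, Istabraq, Marksman).

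Leaving out 1 replicate number gave N350 minus N100 of -0.22 to -0.14 for 1-FEH and -0.24 to -0.13 for Ta.9641.1.A1_a_at, and N200 minus N100 of -0.22 to -0.19 for Ta.30950.1.A1_x_at. The cultivar by environment value of Ta.9641.1.A1_a_at was 0.61 to 0.72. For 1-FEH, 2010 minus 2009 was 0.0016 to 0.39, 2011 minus 2010 was -0.48 to -0.18 at Rothamsted and 0.20 to 0.25 at RAGT, and for Ta.9641.1.A1_a_at it was -0.19 to -0.057 and 0.10 to 0.18. RAGT minus Rothamsted in 2010 was -0.27 to -0.20 for Ta.30950.1.A1_x_at and -0.34 to -0.19 for Ta.9641.1.A1_a_at, and the change of site difference was 0.28 to 0.35 and 0.23 to 0.32.

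Arrays with the same number in a site and season had a median correlation of 0.12 over their deviations from group means (-0.73 to 0.84). For different numbers it was -0.06, which adds no separate support, since deviations from a group mean sum to 0 within the group. Plots of the same number were somewhat alike, most in Rothamsted 2009 (0.17, with -0.08 for different numbers). The main fit did not take this likeness into account. With the replicate number as a block (replicate block) N350 minus N100 was -0.31 for Ta.30950.1.A1_x_at and -0.18 for 1-FEH (adjusted p = 0.00590), and no call of a main comparison changed.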
